A study of Mus musculus with 4 samples.

Results

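The STAT genes encode transcription factors that wait in the cytoplasm until a cytokine receptor calls on them. Here 6 of them, Stat2, Stat3, Stat4, Stat5a, Stat5b and Stat6, were taken by gene symbol from the 24340 genes of the expression table, by a rule that uses no measured value. RNA came from lineage-negative, Kit-positive bone marrow cells of C57BL/6 mice, a sort meant to take young blood cells. All 4 groups carried JAK2V617F, an always-active form of the kinase JAK2. The cells were Tet2-/- given ruxolitinib, Tet2-/- control, Tet2+/+ given ruxolitinib, and Tet2+/+ control, with 1 library each, so no difference has a replicate check and no p-value was computed. Tet2 encodes an enzyme that oxidises methylated cytosine, and ruxolitinib inhibits the kinases JAK1 and JAK2. The series text describes conditional inactivation of the gene in blood cells, and it names a cross with Flt3ITD where the sample labels name JAK2V617F. The sources used here do not give the Cre driver, the number of mice behind a library, or the dose and duration of the drug.

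A cytokine that binds its receptor brings together JAK kinases, which phosphorylate the receptor tail and then the STAT proteins that dock there. Paired STAT proteins enter the nucleus and bind short palindromic DNA elements of the form TTCNNNGAA, while STAT6 prefers a spacer longer by 1 base and STAT2 acts with IRF9 on interferon elements. STAT5A and STAT5B serve erythropoietin and interleukin-3, STAT3 serves interleukin-6 and interleukin-10 type signals, STAT4 serves interleukin-12, STAT6 serves interleukin-4 and interleukin-13, and STAT2 serves type I interferon. JAK2V617F signals through receptors of the first kind and keeps STAT5 phosphorylated. RNA levels do not report that phosphorylation, and none of the values here measures it.

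Values are FPKM, fragments scaled to transcript length and to the size of the library, which puts genes of different length on 1 scale. Genes whose 4 values averaged 1 FPKM or more counted as measured, 10471 in all. Depth, estimated from the steps between low FPKM values, was about 52400000, 53900000, 47600000 and 43900000 fragments in the knockout ruxolitinib, knockout control, wild-type ruxolitinib and wild-type control libraries. Intervals below are 95% counting intervals from those estimates and cover counting error alone. The libraries were rich in mast cell genes, with 10 of 11 markers measured and a summed level of 25717 and 21554 FPKM in the knockout ruxolitinib and control libraries, against 34839 and 31414 FPKM in the wild-type ones. The sums are carried by Cma1, Fcer1a, Srgn and a few others, and Cpa3, a main mast cell protease gene, was listed at 0 in all 4 libraries, so a 0 in this table does not show that a gene is silent. Of the stem cell markers 5 of 8 were measured, with sums between 940.9 and 1513.9 FPKM. Most of each sum was Cd34 and Ly6a. They read 317.2 and 583.3 FPKM in the knockout control library, and 430.5 and 1033.3 FPKM in the wild-type ruxolitinib one. Of the T and NK cell markers 1 of 12 was measured. Of the granulocyte-monocyte markers 2 of 10 were measured. The list summed to 36.7 and 32.4 FPKM in the knockout ruxolitinib and control libraries against 112.7 and 93.3 FPKM in the wild-type ones. Most of that sum was Ctsg, at 27.3 and 27.1 FPKM in the knockout libraries against 108.2 and 90.4 FPKM in the wild-type ones, while Mpo read 1.31 and 1.13 FPKM against 0.0445 and 0.0380 FPKM. Xist, transcribed from the inactive X chromosome, read 62.2 and 53.2 FPKM in the knockout libraries and at most 0.0309 FPKM in the wild-type ones, so genotype and sex cannot be told apart in any comparison of genotypes. Tet2 itself read 4.39 and 3.62 FPKM in the knockout ruxolitinib and control libraries against 5.05 and 4.69 FPKM in the wild-type ones, and its whole-gene value does not check a deletion of part of the gene. In bulk RNA, fewer cells of a type and less RNA per cell cannot be told apart.

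The genes lie in 3 places of the mm10 genome. Stat5b (chr11:100780731-100850585, minus strand), Stat5a (chr11:100859351-100885169, plus strand) and Stat3 (chr11:100886810-100939511, minus strand) stand in a row on chromosome 11. By these deposited loci, Stat5b and Stat5a point away from each other across 8765 bases, and Stat5a and Stat3 end tail to tail 1640 bases apart. RefSeq carries Stat5b on to base 100859004, closer to Stat5a. Stat6 and Stat2 (chr10:128270576-128292849, plus strand) share chromosome 10, and Stat4 (chr1:51987148-52107189, plus strand) lies on chromosome 1. The deposited table gives Stat6 a locus merged with its neighbour Nab2 (chr10:127642986-127666703). In the GENCODE vM21 annotation the ends of these genes, on opposite strands, overlap by 40 bases. The strand setting of the counting is not given in the sources used here, so reads in the overlap cannot be told apart.

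Stat5a and Stat5b are near copies, which bears on how far their values can be separated. Their coding sequences were identical at 90.7% of 2343 aligned bases, against 53.9% to 61.5% for every other pair of the 6. Of all 50-base stretches of the Stat5a transcript 15.8% also occurred in Stat5b, and 11.8% the other way. No other pair shared a 50-base stretch. The longest identical run is shown because fragments that fall wholly inside it fit both genes, and it covers coding bases 571 to 894 of each, 324 in all. Its first 300 bases, coding bases 571 to 870, are printed from the GENCODE vM21 transcripts, with no capitals since every base is shared.
Stat5a and Stat5b, shared coding run: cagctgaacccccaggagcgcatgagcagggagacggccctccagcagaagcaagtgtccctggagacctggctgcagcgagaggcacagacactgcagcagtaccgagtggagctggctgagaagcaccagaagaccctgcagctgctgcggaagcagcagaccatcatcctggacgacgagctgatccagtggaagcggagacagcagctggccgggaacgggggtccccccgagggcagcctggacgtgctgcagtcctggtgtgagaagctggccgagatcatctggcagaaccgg

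The promoters, taken from RefSeq (GRCm38.p6) as 250 bases before to 50 after each start, differ in CpG content, the dinucleotide at which Tet2 acts. All 6 genes matched, with 9 promoters. Stat3 held 15 CpG in 300 bases and Stat2 held 22, against a median of 7 over 32851 promoters with quartiles of 3 and 20. The starts of Stat4 held 2 and 4, those of Stat5a 5 and 27, those of Stat5b 7 and 50, and that of Stat6 held 8. The sequence upstream of Stat3 is shown as that of the member with the largest difference between genotypes, on the minus strand at chr11:100939541-100939790, with CpG in capitals. DNA methylation was not analysed here.
Stat3 promoter: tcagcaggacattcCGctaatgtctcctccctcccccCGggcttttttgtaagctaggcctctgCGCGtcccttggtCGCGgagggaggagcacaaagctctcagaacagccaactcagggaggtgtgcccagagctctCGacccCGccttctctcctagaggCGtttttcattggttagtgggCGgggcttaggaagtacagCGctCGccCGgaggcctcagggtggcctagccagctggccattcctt
The STAT element TTCNNNGAA, searched on both strands, was in 0 of the 9 promoters and in 8.30% of all promoters. TTCNNNNGAA was in 1 of the 9, that of Stat2, and in 6.95% of all. TTTCNNTTTC or its reverse complement GAAANNGAAA, the core of the interferon element, was in 2 of the 9, those of Stat2 and of the second start of Stat4, and in 3.44% of all. The sequence upstream of Stat2 is shown because it holds that core, beginning 222 bases before the start on the plus strand of chr10:128270248-128270497, with the core in capitals. The TTCNNNNGAA match begins 210 bases before the start and follows that core without overlap.
Stat2 promoter: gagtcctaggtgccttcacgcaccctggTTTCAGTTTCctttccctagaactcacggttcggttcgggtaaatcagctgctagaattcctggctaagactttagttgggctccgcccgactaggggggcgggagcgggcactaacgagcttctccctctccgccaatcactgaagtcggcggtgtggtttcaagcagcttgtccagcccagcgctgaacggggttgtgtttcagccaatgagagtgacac
A match is a description of the letters and not a bound site, and the interferon core was searched after the values were seen.

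All 6 genes were expressed in every library, between 15.8 and 49.5 FPKM. Stat2, the interferon factor, was the lowest of them in each library at 16.6, 15.8, 18.0 and 17.3 FPKM in the knockout ruxolitinib, knockout control, wild-type ruxolitinib and wild-type control libraries. Its mean stood above that of 53.8% of measured genes, while the means of the other 5 stood above 73.0% to 78.7%. Stat6 was the highest in both knockout libraries and Stat3 in both wild-type libraries.

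**Figure D1:**
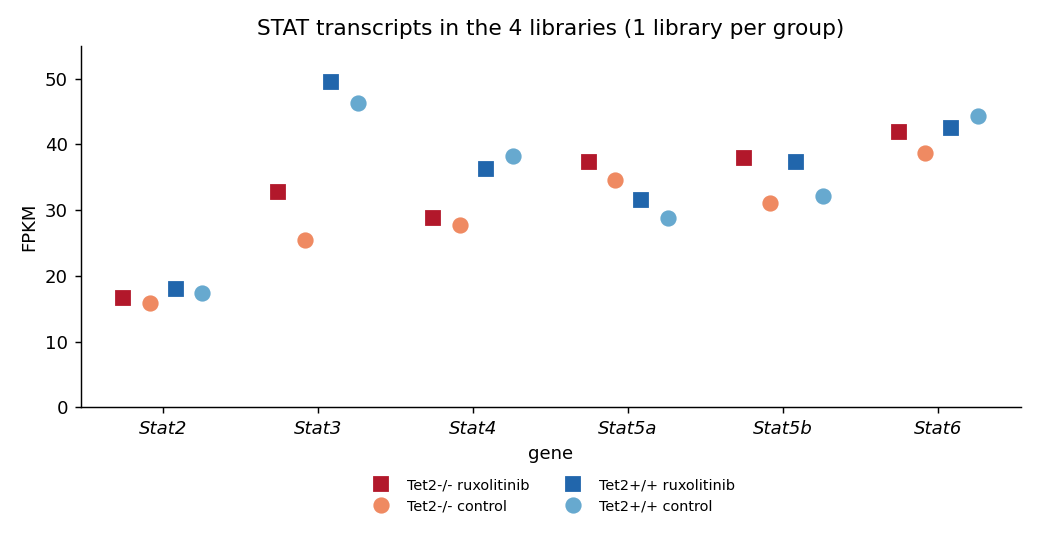
FPKM of the 6 STAT genes in each of the 4 libraries, on a linear axis from 0, with 1 point per library. Stat3 spans the widest range, 25.5 to 49.5 FPKM, and Stat2 and Stat6 the narrowest.

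The order of the levels differed between genotypes. In the knockout ruxolitinib library it ran Stat6, Stat5b, Stat5a, Stat3, Stat4, Stat2, and in the knockout control library Stat6, Stat5a, Stat5b, Stat4, Stat3, Stat2. In the wild-type ruxolitinib library it ran Stat3, Stat6, Stat5b, Stat4, Stat5a, Stat2, and in the wild-type control library Stat3, Stat6, Stat4, Stat5b, Stat5a, Stat2. Neighbours in these orders lay within counting error of each other for Stat5b and Stat5a in the knockout ruxolitinib library and for Stat5b and Stat4 in the wild-type ruxolitinib library. The spread between mice is unknown, so the other steps are steps between libraries.

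Summed over the 6 genes, the level was 195.5 and 173.4 FPKM in the knockout ruxolitinib and control libraries, against 215.1 and 207.0 FPKM in the wild-type ones. The log2 ratio of the sums was -0.14 with drug and -0.26 without, and under TPM, which sets every library to the same sum, -0.0046 and -0.10. Stat5a and Stat5b together made up 38.5% and 37.8% of that sum in the knockout libraries, against 32.0% and 29.4% in the wild-type ones. Stat3 stood at 0.863 and 0.820 times the level of Stat5b in the knockout ruxolitinib and control libraries, against 1.33 and 1.44 times in the wild-type ones. Within a library such ratios do not depend on how the libraries were scaled. Both knockout libraries thus held less Stat3 than Stat5b, and both wild-type libraries held more.

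The first comparison set Tet2 knockout against wild-type cells. Stat3, Stat4, Stat2 and Stat6 were lower in both knockout libraries than in either wild-type library, Stat5a was higher in both, and Stat5b overlapped. Both knockout libraries lay below both wild-type libraries for these 4 of 6 genes, beside 28.2% of measured genes, and above them for 1 of 6, beside 28.2%. Of the 4, Stat2 and Stat6 did not keep that direction in every scaling, as given below. At 1.5-fold or more on FPKM + 1, 0 of 6 differed with ruxolitinib, beside 3.34% of measured genes lower and 2.97% higher. Without drug Stat3 was lower in the knockout and the other 5 did not reach the size, beside 5.06% of measured genes lower and 3.88% higher. The median log2 ratio of the 6 genes was -0.06 with drug and -0.16 without drug, beside 0.00 over all measured genes in both cases.

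Stat3, the factor of interleukin-6 and interleukin-10 type signals, had 32.8 and 25.5 FPKM in the knockout ruxolitinib and control libraries, against 49.5 and 46.3 FPKM in the wild-type ones. Both knockout values lay below both wild-type values without overlap. The log2 ratio of knockout over wild type was -0.58 in ruxolitinib cells (counting interval -0.62 to -0.54), just short of the 1.5-fold rule, and -0.84 in control cells (-0.88 to -0.80). Of measured genes, 6.42% had a ratio of larger size with drug and 4.34% without it. The authors' deposited table gives Stat3 log2 fold changes of -0.59 with drug and -0.86 without, with a q-value of 0.000746 in both, which compares libraries and not genotypes.

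Stat4, best known in T and NK cells as the factor of interleukin-12, had 28.8 and 27.7 FPKM in the knockout ruxolitinib and control libraries, against 36.2 and 38.2 FPKM in the wild-type ones. Both knockout values were lower than either wild-type value. The log2 ratio was -0.32 in ruxolitinib cells and -0.45 (-0.51 to -0.39) in control cells, and -0.19 and -0.31 under TPM. The authors' deposited table gives it q-values of 0.0877 with drug and 0.00639 without. Of the T and NK cell markers 5 of 12 were listed at 0 in all libraries, and the whole list summed to 2.64, 2.53, 1.44 and 1.57 FPKM in the knockout ruxolitinib, knockout control, wild-type ruxolitinib and wild-type control libraries, well below Stat4 alone. The mast cell markers, whose sum was lower in the knockout libraries, were split as a list, with 5 of 10 ratios below 0 with drug (median -0.09) and 9 of 10 without drug (median -0.26). Tpsab1 was higher in the knockout, at 42.9 and 52.0 FPKM in the knockout ruxolitinib and control libraries against 10.03 and 23.3 FPKM in the wild-type ones. Their part in the Stat3 and Stat4 differences was not tested.

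Stat5a, which with Stat5b carries erythropoietin and interleukin-3 signals, was the one member higher in both knockout libraries, at 37.3 and 34.5 FPKM in the knockout ruxolitinib and control libraries against 31.6 and 28.8 FPKM in the wild-type ones. The log2 ratio was 0.23 with drug and 0.26 (0.20 to 0.31) without drug, sizes that 28.3% and 34.1% of measured genes exceeded. Under TPM it was 0.37 and 0.41. In the authors' deposited table its q-values were 0.268 with drug and 0.209 without. Stat5b had 38.0 and 31.0 FPKM in the knockout ruxolitinib and control libraries, against 37.3 and 32.1 FPKM in the wild-type ones. Its genotypes overlapped, with log2 ratios of 0.02 with drug (-0.02 to 0.07) and -0.05 without, and of 0.16 and 0.10 under TPM. Because the transcripts share long stretches, the split of fragments between Stat5a and Stat5b rests on the authors' counting and is uncertain. Their summed level, less touched by that split, was 75.3 and 65.6 FPKM in the knockout ruxolitinib and control libraries against 68.9 and 60.9 FPKM in the wild-type ones.

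Stat6, the factor of interleukin-4, had 41.9 and 38.8 FPKM in the knockout ruxolitinib and control libraries, against 42.5 and 44.3 FPKM in the wild-type ones. The log2 ratios were -0.02 with drug and -0.19 without drug, and 0.11 and -0.04 under TPM. Its locus partner Nab2, a corepressor of EGR factors, had 19.5 and 17.7 FPKM in the knockout ruxolitinib and control libraries against 14.9 and 26.7 FPKM in the wild-type ones. Stat2 had log2 ratios of -0.11 with drug and -0.12 without drug, both of which became 0.02 under TPM. The directions of Stat2, of Stat6 with drug and of Stat5b without drug therefore flip with the scaling, while Stat3 and Stat4 were lower and Stat5a was higher under both scalings. TPM moved the median of all genes upward by 0.13 with drug and 0.14 without drug in these comparisons.

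**Figure D2:**
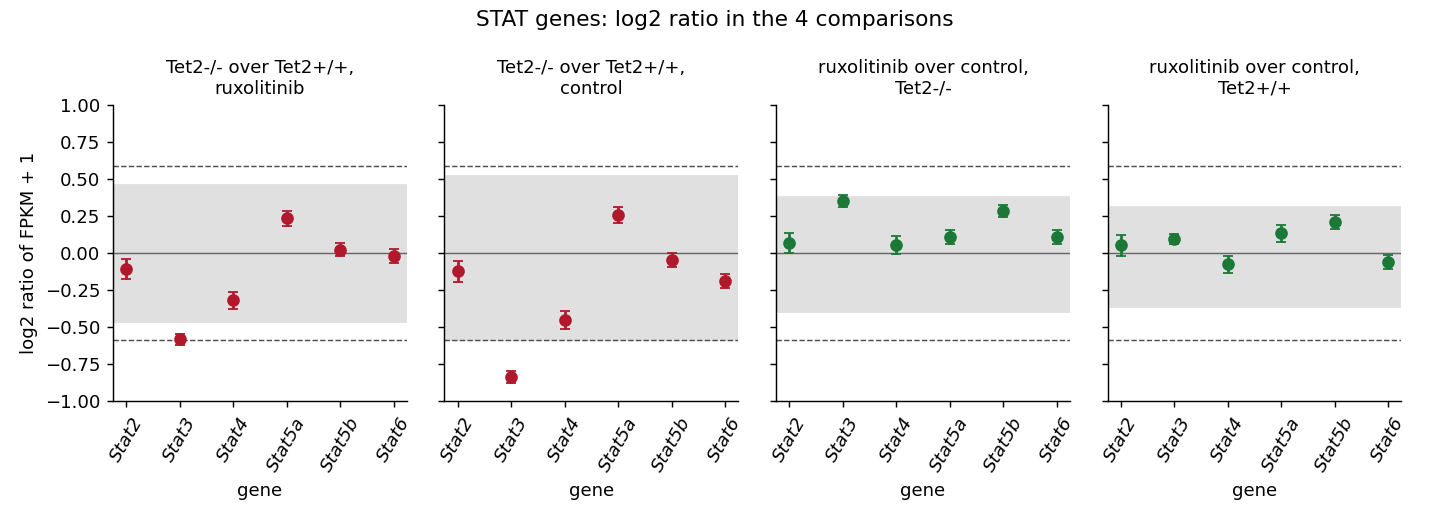
Log2 ratio of FPKM + 1 for each STAT gene, knockout over wild type and ruxolitinib over control, with bars for 95% counting intervals, a grey band from the 5th to the 95th percentile of measured genes and dashed lines at 1.5-fold. Stat3 without drug, at -0.84, is the 1 point beyond a dashed line.

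The chromosome 11 genes differed in direction although they adjoin. Between knockout and wild-type control cells the log2 ratio ran -0.05 at Stat5b, 0.26 at Stat5a and -0.84 at Stat3, across a stretch in which Stat5a and Stat3 are 1640 bases apart. Ghdc, 9.773 kb beyond Stat5b, had a ratio of -0.04, and Rab5c, a trafficking GTPase further out, had -0.03. Ptrf, 17.224 kb beyond Stat3, a caveola coat gene also known as Cavin1, had 0.30. On chromosome 10 the neighbour of Stat2 that differed most was Timeless, a replication fork protein 17.634 kb away, with 15.4 and 12.4 FPKM in the knockout ruxolitinib and control libraries against 9.19 and 7.10 FPKM in the wild-type ones. The lower level of Stat3 thus did not extend to its measured neighbours on either side.

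**Figure D3:**
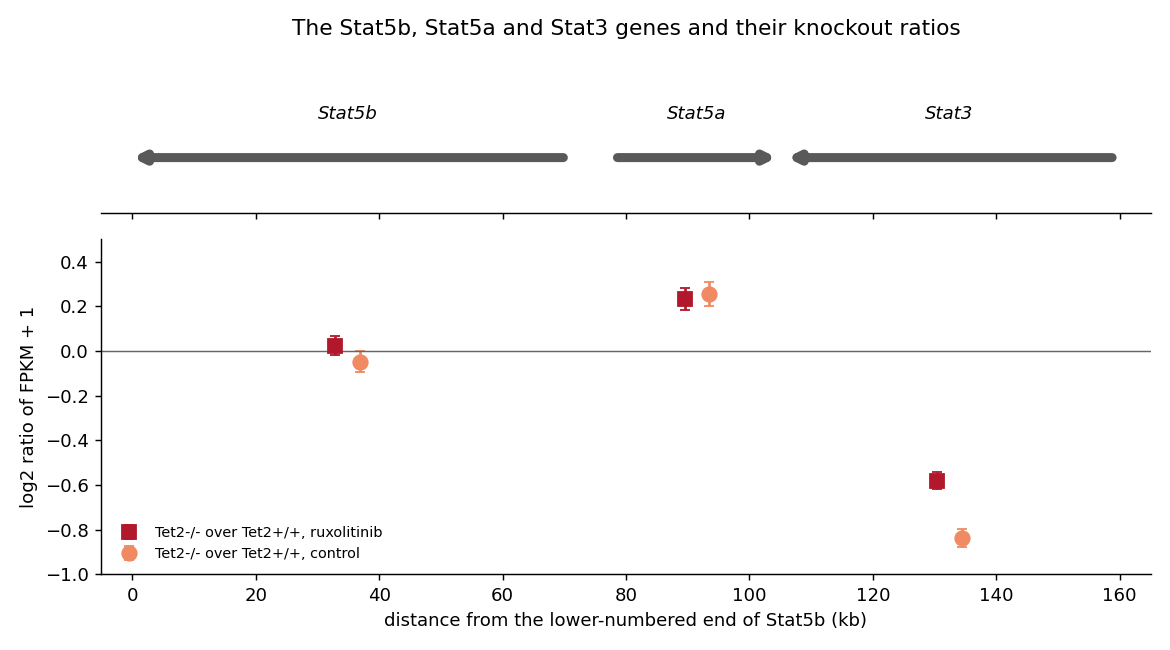
Arrows show Stat5b, Stat5a and Stat3 to scale along chromosome 11 in kb, pointing in the direction of transcription, and points show their log2 ratio of FPKM + 1, knockout over wild type, with ruxolitinib and without, with bars for 95% counting intervals. Stat3 lies below -0.5 in both, beside Stat5a above 0.

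Stat3 was the 1 member whose FPKM + 1 spanned at least 1.5-fold over the libraries. The genes most like it over the 4 libraries, by the root mean square difference of centred log2 values among 7757 protein-coding genes, were Ddc, Tubb2a and Prnp, at 0.04 each. Ddc, an amino acid decarboxylase, had 8.84, 7.33, 14.4 and 13.1 FPKM in the knockout ruxolitinib, knockout control, wild-type ruxolitinib and wild-type control libraries. Prnp, the prion protein gene, had 161.3, 118.2, 228.5 and 225.8 FPKM in the same order. With 4 libraries, 71 genes came within 0.1 of Stat3, so this likeness picks out no small group.

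The second comparison set ruxolitinib against control cells of the same genotype. Of the 6 genes 0 reached 1.5-fold in either genotype, beside 1.67% of measured genes higher and 2.2% lower in the knockout, and 1.05% higher and 2.64% lower in wild type. Stat5b was the 1 member with both ruxolitinib libraries above both control libraries, as were 18% of measured genes, and 0 of 6 had both below, as had 18.4%. In knockout cells all 6 ratios were above 0, with a median of 0.11, and in wild-type cells 4 of 6 were, with a median of 0.07, beside 0.00 and 0.01 over all measured genes.

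Stat5b had 38.0 FPKM in knockout ruxolitinib cells against 31.0 FPKM in knockout control cells, and 37.3 FPKM in wild-type ruxolitinib cells against 32.1 FPKM in wild-type control cells. The log2 ratios were 0.28 (0.24 to 0.32) and 0.21, sizes exceeded by 19.1% and 22.5% of measured genes. In the authors' deposited table the q-values were 0.149 and 0.338. Stat5a was higher by log2 ratios of 0.11 in knockout and 0.13 in wild-type cells. Stat3 was higher in knockout cells with the drug by a log2 ratio of 0.35 (0.31 to 0.39), at a deposited q-value of 0.0527 in the authors' table, and by 0.09 in wild-type cells. Stat4 had ratios of 0.05 in knockout and -0.08 in wild-type cells, Stat6 0.11 and -0.06, and Stat2 0.07 and 0.05.

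The difference between the drug's ratios, knockout minus wild type, was 0.26 for Stat3 (0.20 to 0.31), a size that 10.8% of measured genes exceeded. It was 0.17 for Stat6, 0.13 for Stat4, 0.07 for Stat5b, 0.02 for Stat2 and -0.02 for Stat5a. Of the 6 genes 0 reached 1.5-fold in that difference, beside 1.82% of measured genes higher and 1.14% lower. The 4 libraries allow no test of that difference.

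Upstream of the STAT proteins, the kinases and receptors of the pathway were expressed with them. All 4 JAK kinases were measured and 0 of 4 reached 1.5-fold in any comparison, with median log2 ratios of -0.23 and -0.29 for knockout over wild type with and without drug, and of 0.11 and 0.03 for ruxolitinib in knockout and wild-type cells. Over all measured genes, the shares at 1.5-fold in these comparisons lay between 1.05% and 5.06% per direction. Jak2 had 24.9 and 24.5 FPKM in the knockout ruxolitinib and control libraries against 35.1 and 36.8 FPKM in the wild-type ones. Jak1 had 71.3 and 63.4 FPKM against 75.3 and 71.4 FPKM in the same order. Both drug targets were thus expressed in every library, and Jak2 was lower in both knockout libraries.

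Of 34 cytokine receptor genes 20 were measured. In knockout over wild-type cells 0 were higher and 2 lower at 1.5-fold with drug, with a median of -0.05, and 1 was higher and 4 were lower without drug, with a median of -0.10. The shares over the whole measured set were 2.97% higher and 3.34% lower with drug, and 3.88% and 5.06% without. The 4 were Il10ra, Crlf2, Epor and Il4ra. Crlf2, the receptor for thymic stromal lymphopoietin, had 88.2 and 78.5 FPKM in the knockout ruxolitinib and control libraries against 148.1 and 142.2 FPKM in the wild-type ones. Il10ra, the interleukin-10 receptor chain that acts through STAT3, had 56.4 and 47.2 FPKM against 78.0 and 87.1 FPKM. Epor, the erythropoietin receptor, had 3.29 and 2.46 FPKM against 6.37 and 4.68 FPKM. With ruxolitinib 1 was higher and 0 were lower in each genotype, with medians of 0.14 in knockout and 0.05 in wild-type cells. That gene was Il5ra, the interleukin-5 receptor chain, at 9.02 and 6.33 FPKM in knockout and wild-type ruxolitinib cells against 5.45 and 3.24 FPKM in the matching controls. Background shares for the drug were 1.67% up and 2.2% down for knockout, 1.05% up and 2.64% down for wild type. Csf2rb2, the most expressed receptor of the list, fell just short of 1.5-fold, with log2 ratios of -0.584 in knockout and -0.579 in wild-type cells. Csf2rb had -0.35 and -0.39 in the same order. Of the 20 receptors, 13 in knockout and 12 in wild-type cells had ratios above 0. The granulocyte colony-stimulating factor receptor gene Csf3r was listed at 0 in all 4 libraries.

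Of 22 genes that restrain STAT signalling 21 were measured, and 4 were lower with ruxolitinib in each genotype, beside 2.2% of measured genes in knockout and 2.64% in wild-type cells, with medians of -0.03 in knockout and -0.02 in wild-type cells. These were the feedback inhibitors Cish, Socs1, Socs2 and Socs3. Socs1 had 33.5 and 29.99 FPKM in knockout and wild-type ruxolitinib cells against 115.8 and 111.4 FPKM in the matching controls. The phosphatases and PIAS proteins of the list did not reach the size. For knockout over wild type, 0 reached the size with drug (median -0.02), and 0 were higher and 2 lower without drug (Socs3 and Cish, median -0.08). Of all measured genes, 2.97% were higher and 3.34% lower with drug, and 3.88% and 5.06% without. Of 16 nuclear partners 15 were measured. The deacetylase gene Hdac1 was the 1 that reached 1.5-fold, at a ratio of 0.59 in knockout over wild-type control cells. There 3.88% of all measured genes were higher. In the other comparisons 0 reached it, beside 1.05% to 3.34% of measured genes per direction. The medians lay between -0.07 and 0.07.

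Genes linked to each STAT protein were counted in the same way, from lists that share members. Socs1 is in both the STAT5 and the STAT6 list. Cish, Socs1, Socs2, Socs3 and Usp18 are also among the brakes, and Irf9 is among the nuclear partners. Il4ra, Il12rb2, Il2ra and Il6st are also among the receptors. The counts of these lists are therefore not independent. Of 17 genes linked to STAT5, 16 were measured. With ruxolitinib 1 was higher and 7 lower in each genotype, with medians of -0.32 in knockout and -0.29 in wild-type cells. The shares over the whole measured set were 1.67% higher and 2.2% lower for the knockout, 1.05% and 2.64% for wild type, with medians of 0.00 and 0.01. Cish, a direct STAT5 target, had 40.7 and 45.1 FPKM in knockout and wild-type ruxolitinib cells against 113.8 and 174.1 FPKM in the matching controls. The 1 gene that was higher was Bcl6, a repressor described as repressed by STAT5, at 2.08 and 2.44 FPKM in knockout and wild-type ruxolitinib cells against 0.524 and 0.887 FPKM in the matching controls, named after its values were seen. Bcl6 passed the filter on low values through the ruxolitinib libraries in which it is high, so its place in the count is a description only. Beside these targets, Stat5a and Stat5b RNA was not lower with the drug in either genotype. For knockout over wild type, 2 were higher and 1 lower with drug (median -0.15), and 2 and 4 without drug (median -0.28). Of all measured genes, 2.97% were higher and 3.34% lower with drug, and 3.88% and 5.06% without. Ccnd1, which encodes cyclin D1, had 20.0 and 13.9 FPKM in the knockout ruxolitinib and control libraries against 8.72 and 7.29 FPKM in the wild-type ones, while Ccnd2, for cyclin D2, had 128.8 and 144.5 FPKM against 227.4 and 247.1 FPKM.

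The promoters of Cish and Bcl6 carry the STAT element and are shown as examples of how it reads. Of the 17 genes 11 matched the promoter table, with 16 promoters, of which 4 (25%, in Bcl6, Cish and Gfi1b) held TTCNNNGAA beside 8.30% of all promoters, a comparison made after the values were seen. Cish has a pair of elements 2 bases apart at its start, at chr9:107296654-107296683 on the plus strand, and the upstream sequence of Bcl6 has 3 of them, beginning 168, 122 and 88 bases before the start, at chr16:23981284-23981533 on the minus strand. Capitals mark the elements.
Cish start: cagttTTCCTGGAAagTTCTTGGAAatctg
Bcl6 promoter: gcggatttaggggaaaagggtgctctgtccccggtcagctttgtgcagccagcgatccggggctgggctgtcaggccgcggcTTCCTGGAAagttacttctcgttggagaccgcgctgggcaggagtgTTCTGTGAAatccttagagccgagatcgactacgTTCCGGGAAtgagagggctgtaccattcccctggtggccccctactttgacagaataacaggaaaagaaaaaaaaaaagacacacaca

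Of 15 genes linked to STAT3, 10 were measured. In knockout over wild-type cells 0 were higher and 1 lower with drug (median 0.05), and 0 and 4 without drug (median -0.31). Of all measured genes, 2.97% were higher and 3.34% lower with drug, and 3.88% and 5.06% without. With ruxolitinib 0 were higher and 2 lower in knockout cells (median -0.26) and 0 and 4 in wild-type cells (median -0.37), beside 2.2% and 2.64% of measured genes lower. The ratio difference was at least 1.5-fold upward for 4 of 10, beside 1.82%. These were Socs3, Fos, Junb and Vegfa, each highest in the wild-type control library. Vegfa was so only narrowly, at 14.4 FPKM against 13.5 FPKM in the knockout control library. That library also enters the knockout count without drug and the wild-type drug count, so these counts are not separate observations. Junb, an AP-1 subunit, had 41.2 and 57.2 FPKM in the knockout ruxolitinib and control libraries against 42.9 and 114.9 FPKM in the wild-type ones. Fgl2, a fibrinogen-like immune regulator, had 41.3 and 45.7 FPKM against 66.2 and 85.0 FPKM, lower in both knockout libraries. Birc5, the survivin gene, was on the other side. It had 110.1 and 108.0 FPKM in the knockout ruxolitinib and control libraries against 82.9 and 79.8 FPKM in the wild-type ones. Like Tpsab1, Ctsg, Mpo, Cd34 and Ly6a above, Birc5 was named after its values were seen.

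Of 20 interferon genes linked to STAT2, 7 were measured, with 0 higher and 1 lower in the knockout (beside the same shares of measured genes as above) both with and without drug (medians -0.33 and -0.38), and 0 reaching the size with ruxolitinib (medians -0.15 in knockout and -0.20 in wild-type cells). The 1 was Oas1a, a sensor of double-stranded RNA, at 2.84 and 2.89 FPKM in the knockout ruxolitinib and control libraries against 5.39 and 5.88 FPKM in the wild-type ones. Of 15 genes linked to STAT6, 7 were measured, with 3 higher and 0 lower in the knockout with drug (median 0.15), 1 and 2 without drug (median 0.06), and 0 and 2 with ruxolitinib in each genotype (medians -0.24 in knockout and -0.54 in wild-type cells). Beside the STAT6 genotype counts, 2.97% of all measured genes were higher and 3.34% lower with drug, and 3.88% and 5.06% without. For ruxolitinib, the shares beside both lists were 1.67% higher and 2.2% lower in knockout cells, and 1.05% and 2.64% in wild type. Clec10a, a lectin, had 128.5 and 134.5 FPKM in the knockout ruxolitinib and control libraries against 64.7 and 68.5 FPKM in the wild-type ones. Gata3, also among the 3 higher with drug, had 2.03 and 1.51 FPKM against 0.897 and 0.884 FPKM in the same order. Gata3 passed the filter on low values through the knockout libraries in which it is high, so its place in the count is a description only. Il13, the interleukin-13 gene, had 1.34 and 0.5004 FPKM in knockout and wild-type ruxolitinib cells against 5.05 and 17.7 FPKM in the matching controls. Il13 passed the filter on low values through the control libraries in which it is high, so its place in the STAT6 counts is a description only.

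Of 10 genes linked to STAT4, 6 were measured. In the knockout 0 were higher and 1 lower with drug (median -0.19) and 0 and 2 without drug (median -0.27). Of all measured genes, 2.97% were higher and 3.34% lower with drug, and 3.88% and 5.06% without. With ruxolitinib 0 were higher and 1 lower in each genotype (medians -0.19 in knockout and -0.28 in wild-type cells). The shares there were 1.67% higher and 2.2% lower in knockout cells, and 1.05% and 2.64% in wild type. Gadd45g, a growth arrest gene, had 10.4 and 12.2 FPKM in the knockout ruxolitinib and control libraries against 21.4 and 26.4 FPKM in the wild-type ones. Map3k8, a kinase of the MAP kinase cascade, had 0.635 and 0.496 FPKM in knockout and wild-type ruxolitinib cells against 2.63 and 3.19 FPKM in the matching controls. It passed the filter on low values through the control libraries, so the count of 1 is a description only. Il12rb2, the receptor chain through which interleukin-12 engages STAT4, was present at 24.9, 17.04, 21.3 and 16.7 FPKM in the knockout ruxolitinib, knockout control, wild-type ruxolitinib and wild-type control libraries, while interferon gamma (Ifng), the classical product of STAT4 in T cells, was listed at 0 in all 4.

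**Figure D4:**
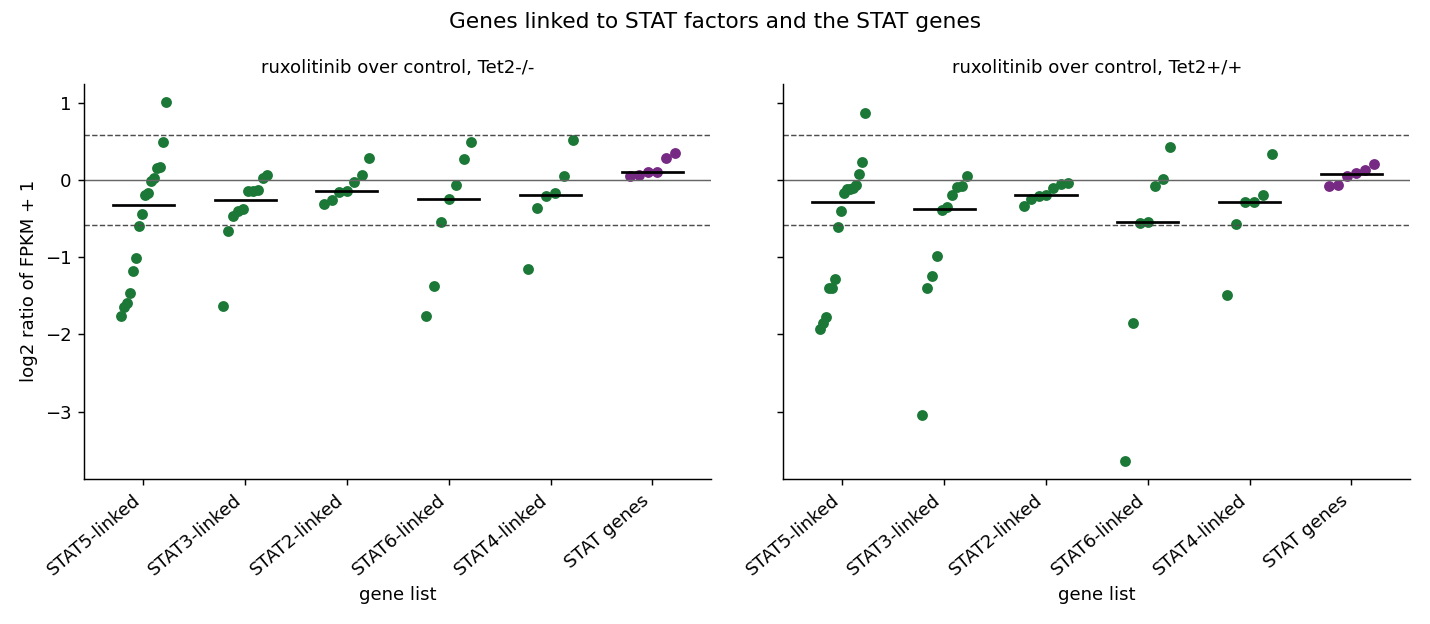
Log2 ratio of FPKM + 1 of the measured genes linked to each STAT protein, as points with a black bar at their median, beside the 6 STAT genes, for ruxolitinib over control in knockout cells and in wild-type cells, with dashed lines at 1.5-fold. With ruxolitinib the points of the STAT5 list spread far below 0 in both genotypes, while Stat5a and Stat5b sit between 0.11 and 0.28.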

How the data were processed

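Per the labels' protocols, ribosomal RNA was removed from total RNA before Illumina sequencing. The submitters' processing notes name STAR, Cuffdiff and the mm10 build. Versions, and which annotation was used, are not stated there. FPKM values per gene and library were computed and deposited by the authors, and any scaling between libraries was Cuffdiff's. The authors' deposited comparison table holds log2 fold changes without a pseudocount, p-values and q-values, and a test statistic, which is a score. Of these only fold changes and q-values were used, for 4 of the 6 comparisons. Its loci start from 0 and were made 1-based.

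Groups were taken from the sample titles. Each ratio is a difference of log2(FPKM + 1), a scale that shrinks differences of low genes, and 1.5-fold or more counted as reached. Depth was estimated from the steps of low FPKM values. Of held-out low values 79.8% to 82.3% lay within 0.15 of a whole multiple, so intervals are approximate. The ratio step and the 1.5-fold rule were tested on simulated counts, and the counting intervals were not. Gene lists (9 of the pathway, 8 of cell types) were named by up to 4 measured members of largest ratio at 1.5-fold per comparison, or else the 2 most expressed, and the text describes some of these. The STAT genes and the lists were chosen with earlier results of these data known. The sum of B cell markers was at most 0.129 FPKM. Basophil markers summed to 549.8, 564.1, 363.1 and 412.5 FPKM in the knockout ruxolitinib, knockout control, wild-type ruxolitinib and wild-type control libraries, erythroid markers to 93.2, 103.2, 102.3 and 111.2 FPKM, and megakaryocyte markers to 559.6, 466.9, 773.1 and 693.7 FPKM. In each library most of the erythroid sum was Gata1, and most of the megakaryocyte sum was Itga2b. Both were named after their values were seen. Protein sequences were not used here. The tools were biopython 1.88, matplotlib 3.10.9, numpy 2.4.6, Python 3.11.15, scipy 1.17.1 and pandas 2.3.3. Alternatives were pseudocounts of 0.1 and 5, no filter, a mean filter of 5 FPKM, median centring, TPM, fold rules of 1.25 and 2, and the authors' own fold changes.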

Additional observations from a re-analysis of the deposited data

Results flagged for a closer look

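Some ratios pointed in opposite directions in the groups compared, each with 1 library a side, and none of these differences was tested. The ruxolitinib log2 ratio of Stat4 was above 0 in knockout and below 0 in wild-type cells, a difference of 0.13, and the counting interval in knockout cells spanned 0, at -0.01 to 0.12. The ruxolitinib ratio of Stat6 was also above 0 in knockout and below 0 in wild-type cells, a difference of 0.17. Its counting intervals, 0.06 to 0.16 in knockout and -0.11 to -0.01 in wild-type cells, did not span 0. Under TPM the Stat6 ratios were 0.13 in knockout and -0.02 in wild-type cells. In the authors' deposited table the q-values were 0.768 and 0.892 in the same order. The knockout over wild-type ratio of Stat5b was above 0 with ruxolitinib and below 0 without it, a difference of 0.071. For Stat5b the counting interval with ruxolitinib spanned 0, at -0.02 to 0.07, and under TPM both ratios were above 0, at 0.16 and 0.10. The median knockout ratio of the genes linked to STAT3 was above 0 with ruxolitinib and below 0 without it, a difference of 0.36.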

How the results depend on the processing

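No paired analysis was possible because each group has 1 library and the labels carry no replicate numbers. Leaving out a library was not possible for the same reason. Without replicates the spread between mice or cultures is unknown, and counting intervals cover depth alone. Among the 30 ratios of the 6 genes (4 comparisons and the difference), the largest shift was 0.02 with a pseudocount of 0.1 or with the authors' fold changes, 0.09 with a pseudocount of 5, and 0.15 with TPM, where 4 changed sign as given in the report. The number of the 6 genes at the fold rule in knockout over wild-type ruxolitinib cells was 0, and became 1 with a pseudocount of 0.1, 1 with the authors' fold changes and 1 at the looser fold rule, each time Stat3. In control cells it was 1, and became 0 at 2-fold and 2 at the looser fold rule. For ruxolitinib in knockout cells it was 0 and became 1 at the looser fold rule, Stat3 again. Under TPM the log2 ratio of the summed level, knockout over wild type, was -0.0046 in place of -0.14 with drug and -0.10 in place of -0.26 without it. Counts at 1.5-fold summed over the 4 comparisons moved by over 1.5 times for some lists. JAK kinases became 1 in place of 0 with a pseudocount of 0.1. With a pseudocount of 5, receptors became 4 in place of 9, nuclear partners 0 in place of 1, interferon genes 0 in place of 2 and STAT4-linked genes 3 in place of 5. With a mean filter of 5 FPKM, interferon genes became 0 and STAT4-linked genes 3. Nuclear partners became 3 with no filter and 2 with TPM. The cause of these moves was not tested.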
